A study of Homo sapiens with 12 samples.

Results

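NPAT is a nuclear protein that is phosphorylated by cyclin E-CDK2 and that sits in histone locus bodies, nuclear bodies that assemble on the clusters of replication-dependent histone genes. There it acts as a coactivator of histone gene transcription as cells enter S phase. CASP8AP2, also called FLASH, is a component of the same bodies and takes part in the 3′ end processing of histone mRNA, HINFP is a zinc finger factor known for binding histone H4 gene promoters, and E2F1 is a transcription factor of genes for S-phase entry. The question addressed here was where NPAT was bound in a normal and in a tumor cell line, and how far its sites at the histone genes were shared between them.

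NPAT was precipitated with 5 µg of antibody from hTERT-RPE1 cells, a normal line of retinal pigment epithelium that was made immortal with telomerase, and from U2OS cells, a line from an osteosarcoma. Each line gave 1 NPAT ChIP-Seq library, set against 1 rabbit IgG library of the same line, which also served as the control of CASP8AP2 and E2F1. HINFP had a goat IgG control. The cells carried no other treatment or genetic change named in the labels, and with 1 library per factor and line no difference between the lines could be tested against a spread between replicates. Shares are given with 95% Wilson intervals and ratios with 95% counting intervals, which cover counting error only.

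The deposited lists hold regions whose summit is at least 8 reads high, 299405 for NPAT in hTERT-RPE1 and 478015 in U2OS. A region was kept when it held at least 30 ChIP sequences and when the ChIP count plus 1, divided by the IgG count plus 1, was at least 3. This kept 332 regions in hTERT-RPE1, 0.111% of those listed, and 1195 in U2OS, 0.25% of those listed. Of the regions with at least 30 ChIP sequences, 29.6% of 1123 and 20.9% of 5713 passed the ratio. Kept regions of both lines that shared at least 1 bp were joined, which turned 1527 regions into 1416 sites. The values at the limit were close: 34 kept regions in hTERT-RPE1 and 196 in U2OS had exactly 30 ChIP sequences, and another 64 and 237 regions passed the ratio with 29. At the ratio, regions with 32 ChIP and 10 IgG sequences, such as the one at 98131374 to 98132034 on chromosome 10 in hTERT-RPE1, were the last to be kept, and a region with 123 and 41, at 34870805 to 34871407 on chromosome 17, was the first left out there.

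The histone loci were read as 26.1 to 28.0 Mb on chromosome 6 and 148.04 to 148.13 Mb on chromosome 1 (NCBI36). All other sites, those on chromosome 12 among them, were counted as elsewhere. A RefSeq table of a later build places 55 histone genes on chromosome 6 (6 H1, 12 H2A, 15 H2B, 10 H3 and 12 H4 genes), 13 on chromosome 1 and 1 on chromosome 12. No annotation of NCBI36 was used here, so sites are named by their position and not by a gene, and whether a site lies at a promoter, an exon or a gene end was not determined. The sites in these loci are numbered along the chromosomes, 1 to 33 on chromosome 6 and 34 to 35 on chromosome 1.

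The histone loci held 35 NPAT sites, and under these limits a larger share of them than of the sites elsewhere was kept in both lines. Of the 35 sites, 19 were kept in both lines, 9 in hTERT-RPE1 alone and 7 in U2OS alone. That is a share of 54.3% in both (38.2 to 69.5%). Of the 1381 sites elsewhere, 86 were kept in both lines, 215 in hTERT-RPE1 alone and 1080 in U2OS alone, a share of 6.23% (5.07 to 7.63%). Counted over regions, 22 of 31 histone regions in hTERT-RPE1 overlapped a kept region in U2OS (71.0%, 53.4 to 83.9%), against 86 of 301 elsewhere (28.6%, 23.8 to 33.9%). In the other direction it was 22 of 29 (75.9%, 57.9 to 87.8%) against 86 of 1166 (7.38%, 6.01 to 9.02%). These shares describe 1 library per line, and regions of a library are not replicates. They also depend on the limits, since most regions elsewhere were near the minimum count. With at least 50 ChIP sequences the share elsewhere was 67.1% in hTERT-RPE1 and 41.2% in U2OS, against 76.9% and 80.0% in the histone loci, and with summits within 200 bp it was 28.6% and 7.38%, against 48.4% and 51.7%.

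By p-value and by ChIP count, though not by fold change, most of the strongest NPAT regions were in the histone loci in both lines. Of the 20 kept regions with the lowest p-value given by the authors, 15 lay there in hTERT-RPE1 and 15 in U2OS, and of the 20 with the most ChIP sequences, 16 and 15. By the deposited fold change, the ratio of the counts times 1 constant per library, it was 5 and 2 of the top 20. The median histone region held 173 ChIP sequences in hTERT-RPE1 (30 to 526) and 146 in U2OS (31 to 609). Elsewhere the medians were 36 (30 to 261) and 34 (30 to 629), so that 61.8% and 76.0% of the regions elsewhere had fewer than 40.

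Along chromosome 6 the sites fell into 3 groups, taken as runs of sites with no gap above 500 kb. Group 1 had 17 sites over 270 kb, group 2 had 4 sites over 16.7 kb and group 3 had 12 sites over 88.6 kb. Between the groups lay 812 and 659 kb without a site. Group 4 is the pair of sites on chromosome 1. The kept regions of group 1 held 4597 ChIP sequences in hTERT-RPE1 and 4698 in U2OS, a ratio of U2OS over hTERT-RPE1 of 1.02. In group 2 the sums were 610 and 1013, a ratio of 1.66, and in group 4 they were 516 and 738, a ratio of 1.43. Group 3 was the exception, with 1083 in hTERT-RPE1 and 517 in U2OS, a ratio of 0.477. These sums are not scaled for the total number of reads, which is not known. If the constant in the deposited fold changes is a depth ratio, the NPAT library was 1.08 times as deep as its IgG library in hTERT-RPE1. In U2OS it was 1.23 times as deep. This reading of the constant is an inference.

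**Figure D1:**
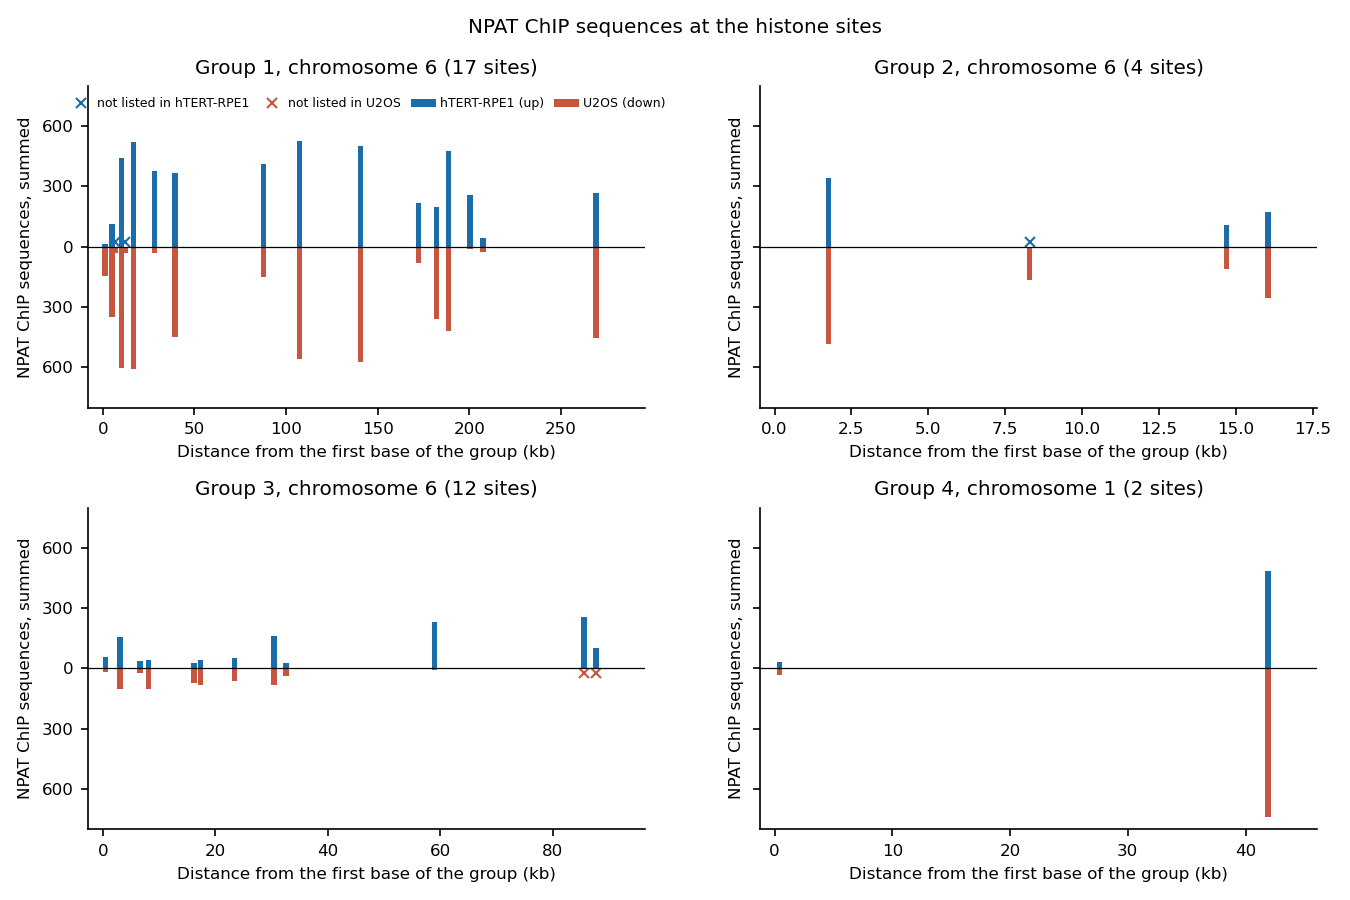
NPAT ChIP sequences summed over the listed regions at each of the 35 histone sites, against the distance in kb from the first base of its group, with hTERT-RPE1 above the line and U2OS below it (counts on both sides, not scaled for depth). Crosses mark sites with no listed region in that line. Groups 1, 2 and 4 have tall bars on both sides, while the 3 last sites of group 3 stand above the line with almost nothing below.

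Group 1 opened with a run of 6 sites at which U2OS had the higher NPAT counts. Site 1 (26124646 to 26126917) had 146 ChIP against 28 IgG sequences in U2OS, while the region that overlapped it in hTERT-RPE1 held 16 against 3. At site 2 (26128407 to 26130903) the strongest region held 58 ChIP and 9 IgG sequences in hTERT-RPE1 (5.48-fold), and 351 and 51 in U2OS (5.52-fold). These regions were of unlike length, 887 bp in hTERT-RPE1 and 2497 bp in U2OS. Summed over all its regions, site 2 held 112 ChIP and 30 IgG sequences in hTERT-RPE1, and 351 and 51 in U2OS. The summed ChIP counts thus differed 3.13 times, and the close fold changes do not hold for the site as a whole. At site 4 (26133346 to 26136494) hTERT-RPE1 had 444 against 37 (10.9-fold) and U2OS 605 against 53 (9.15-fold). Sites 3 and 5, kept in U2OS alone with 31 ChIP sequences each, lay 11 and 10 bp from sites 2 and 4, at the edge of these larger sites. Site 6 (26139054 to 26143549) had 493 against 54 sequences in hTERT-RPE1 (8.34-fold) and 609 against 64 in U2OS (7.65-fold).

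Next came the first site that was strong in hTERT-RPE1 and nearly empty in U2OS. Site 7 (26151257 to 26154711) had 376 ChIP against 43 IgG sequences in hTERT-RPE1, and in U2OS the overlapping regions held 31 ChIP sequences in all, 20 against 3 in the stronger one. CASP8AP2 had 100 against 24 there in hTERT-RPE1 (3.71-fold) and 9 against 5 in U2OS (1.53-fold). Its neighbor in the row, site 8 (26162250 to 26165805), was about equal, with 368 against 59 (5.71-fold) and 449 against 68 (5.32-fold).

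Site 9 (26211281 to 26213278) had the highest NPAT fold change of the histone sites in both lines, at 410 against 21 in hTERT-RPE1 (17.3-fold) and 140 against 9 in U2OS (11.5-fold). Its summit was 208 reads high in hTERT-RPE1 and 61 in U2OS, and HINFP was enriched in both, 10.1-fold and 7.38-fold. Site 10 (26230311 to 26233602) had nearly the same count in the lines, 526 against 62 and 520 against 60. Site 11 (26263479 to 26267405) likewise had 503 against 62 and 507 against 67. The strongest regions of these sites thus had close counts in the lines, with fold changes of 7.77 and 6.96 at site 10 and of 7.43 and 6.09 at site 11. Site 12 (26295972 to 26297730) was lower in U2OS, with 80 against 14 (4.40-fold) as compared with 218 against 27 (7.26-fold).

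Site 13 (26304422 to 26308949) had 153 against 24 in its strongest hTERT-RPE1 region and 199 against 28 in U2OS, 5.72-fold and 5.62-fold. Site 14 (26311940 to 26314517) was the histone site of group 1 with the highest log2 ratio of U2OS over hTERT-RPE1, at 0.35 (-0.30 to 1.01), from 476 against 55 (7.91-fold) and 395 against 31 (10.1-fold). The counting interval of that ratio includes 0.

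Site 15 (26323796 to 26326116) was the other large site of group 1 with little NPAT in U2OS. It held 259 ChIP against 42 IgG sequences in hTERT-RPE1, and the region listed there in U2OS held 9 against 2. CASP8AP2 at site 15 was 96 against 33 in hTERT-RPE1, 2.62-fold, and 21 against 3 in U2OS, 5.03-fold, so that its fold change was higher in the line with the lower count. Site 16 (26331669 to 26332815) was small, with 42 against 4 (7.98-fold) and 27 against 11 (1.90-fold). Site 17 (26392689 to 26395043), the last of the group, was kept in both lines with 241 against 26 (8.32-fold) and 452 against 51 (7.10-fold).

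Group 2 had 3 sites kept in both lines and 1 that was seen in U2OS alone. Site 18 (27207046 to 27210540) had 331 against 29 in hTERT-RPE1 (10.3-fold) and 485 against 61 in U2OS (6.39-fold). Sites 20 (27221137 to 27222347) and 21 (27222412 to 27223765) lay 65 bp apart, and their fold changes differed in opposite directions. The log2 ratio of U2OS over hTERT-RPE1 was -1.44 (-2.62 to -0.25) at site 20. At site 21 it was 0.65 (-0.20 to 1.51), an interval that includes 0. Site 20 had 106 against 8 (11.0-fold) and 109 against 21 (4.08-fold), so that its ChIP counts were close and its IgG counts differed. Site 21 had 173 against 26 (5.98-fold) and 253 against 21 (9.41-fold).

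Site 19 (27214756 to 27215923), between them, was the clearest site of U2OS alone. NPAT had 166 ChIP against 17 IgG sequences there, a fold change of 7.56 and a summit of 87 reads, and no NPAT region was listed in hTERT-RPE1. CASP8AP2 had 88 against 20 at site 19 in U2OS (3.88-fold), HINFP had 85 against 6 (14.3-fold) and E2F1 had 35 against 9 (3.82-fold). In hTERT-RPE1 neither CASP8AP2 nor HINFP had a listed region, and E2F1 had 12 ChIP against 5 IgG sequences. All 4 factors were thus enriched at this place in U2OS, where in hTERT-RPE1 a region of E2F1 alone was listed, and the IgG count of 5 shows that control reads mapped there in hTERT-RPE1 too.

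Group 3 began with smaller sites. Site 22 (27883233 to 27884163) was kept in hTERT-RPE1 with 57 against 4 (10.8-fold) and had 18 against 4 in U2OS (3.10-fold). At site 23 (27885573 to 27886979), kept in both, the counts were 154 against 26 (5.33-fold) and 101 against 25 (3.20-fold). Site 24 (27889438 to 27890278), kept in hTERT-RPE1, had 34 against 7 and 15 against 7. Site 25 (27890610 to 27892139) was kept in U2OS, with 103 against 21, while hTERT-RPE1 had 24 against 1 in the stronger of its regions there, a fold change of 11.6 that missed only the minimum count.

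Site 26 (27899005 to 27899862) also missed the minimum count in hTERT-RPE1, with 24 against 3 (5.80-fold), and was kept in U2OS with 71 against 6 (8.39-fold). HINFP was enriched at site 26 in both lines, 23 against 2 (7.99-fold) in hTERT-RPE1 and 68 against 5 (13.4-fold) in U2OS. A site listed as kept in 1 line can therefore carry the other factor in both. Sites 27 (27900064 to 27901162) and 30 (27915415 to 27916210) had the highest log2 ratios of U2OS over hTERT-RPE1 among all histone sites. Site 27 was at 1.34 (-0.05 to 2.73), from 39 against 12 and 70 against 7. Site 30 was at 1.12 (-0.42 to 2.66), from 25 against 10 and 40 against 6. Site 28 (27906253 to 27907064) had 51 against 11 (4.02-fold) and 61 against 18 (2.66-fold).

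The lowest log2 ratio of U2OS over hTERT-RPE1 was at site 29 (27912607 to 27914687), -2.17 (-3.48 to -0.86). NPAT had 94 against 6 there in its strongest hTERT-RPE1 region (12.6-fold) and 71 against 20 in U2OS (2.80-fold). E2F1 at site 29 had 37 against 2 in hTERT-RPE1, 11.98-fold, and 9 against 7 in U2OS, 1.33-fold. Both factors share their IgG library within a line, so that the low IgG counts of 6 and 2 in hTERT-RPE1 enter both fold changes.

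The 3 last sites of group 3, over 31.2 kb, were kept in hTERT-RPE1 alone and account for the lower sum of this group in U2OS. Site 31 (27940651 to 27943860) had 230 ChIP against 44 IgG sequences in hTERT-RPE1 and 9 against 5 in U2OS. Site 32 (27967562 to 27969999) had 254 against 35 (6.58-fold), and site 33 (27970050 to 27971826) had 103 against 33 (2.84-fold), with no NPAT region listed in U2OS at either. In all, the 3 sites held 587 NPAT ChIP sequences in hTERT-RPE1 and 9 in U2OS. Without them, group 3 had 496 in hTERT-RPE1 and 517 in U2OS, a ratio of 1.04. These 3 were singled out after their values were seen.

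The counts of CASP8AP2 and E2F1 were also lower in U2OS at the sites of this stretch where they were listed in both lines, but their fold changes were not all lower. At site 31 CASP8AP2 had 75 against 23 in hTERT-RPE1 (2.91-fold) and 12 against 2 in U2OS (3.97-fold). E2F1 had 2 listed regions at site 31 in hTERT-RPE1, with 35 against 19 (1.70-fold) and 27 against 2 (8.82-fold), and none in U2OS. At site 32 CASP8AP2 had 69 against 26 in hTERT-RPE1 (2.38-fold) and no listed region in U2OS. At site 33 it had 29 against 19 (1.38-fold) and 9 against 7 (1.14-fold), while E2F1 there had 109 against 18 (5.47-fold) and 35 against 6 (5.46-fold). Reads of the U2OS libraries thus mapped at site 33, with 6 IgG sequences over the 418 bp of the E2F1 region. At site 32 no U2OS library had a listed region, so that the control reads of U2OS there are not known. The part of the control level in these differences was not tested.

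**Figure D2:**
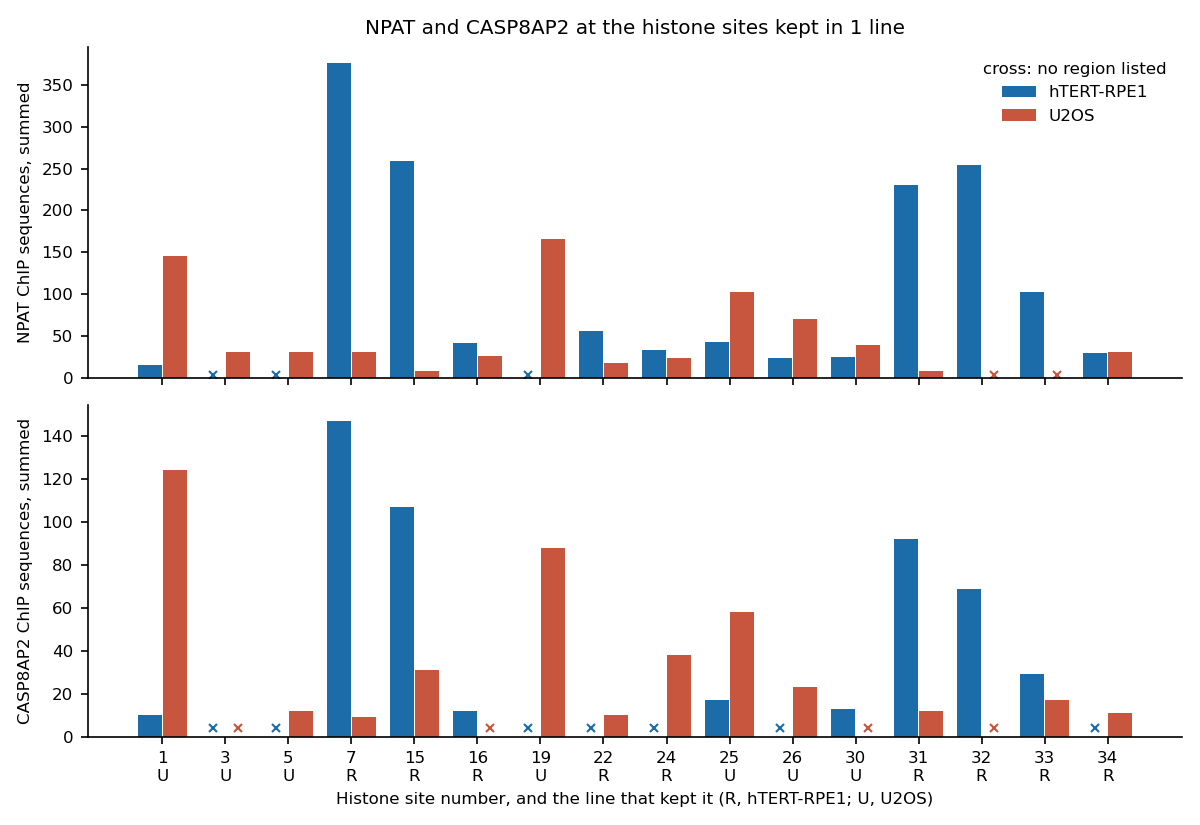
ChIP sequences of NPAT (top) and CASP8AP2 (bottom), summed over the listed regions, at the 16 histone sites kept in 1 line, with a bar for hTERT-RPE1 and for U2OS and a cross where no region was listed. At sites 7, 15, 31 and 32 both factors have their tall bar in hTERT-RPE1, and at sites 1 and 19 in U2OS.

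On chromosome 1, site 35 (148122541 to 148127430) was a broad site kept in both lines, with 343 against 60 in its strongest hTERT-RPE1 region (5.24-fold) and 408 against 57 in U2OS (5.75-fold). The summits of these regions lay 1101 bp apart. Summed over its regions, the site held 486 against 85 in hTERT-RPE1 and 738 against 120 in U2OS. CASP8AP2 at site 35 was 2.66-fold and 4.14-fold. Site 34 (148083088 to 148083887) just reached the minimum in hTERT-RPE1, with 30 against 4, and had 18 against 4 in its stronger U2OS region. Histone genes of this locus include near-identical copies, and how reads that map to several places were treated is not given in the sources used here.

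Over the 30 histone sites listed in both lines, the NPAT fold change was lower in U2OS by the median, with a log2 ratio of -0.44 (-0.89 to -0.10, interval of the median over sites). It was below -1 at 8 sites and above 1 at 2. The counting interval lay below 0 at 5 sites (16, 18, 20, 29 and 31) and above 0 at none. Of these, sites 16 and 31 were kept in hTERT-RPE1 alone. The 30 sites include 7 kept in hTERT-RPE1 alone, with a median of -1.32, and 4 kept in U2OS alone, with a median of 0.30. The rule that kept these sites used the same counts, so it partly sets their direction. A wider set was the 2522 sites listed in both lines with at least 30 ChIP sequences in either line. They did not have to pass the ratio, and their median was -0.09. Of these, 16.2% were at least 2 times lower in U2OS and 10.2% at least 2 times higher. The interval lay below 0 at 5.15% and above 0 at 4.4%. Among the 19 histone sites kept in both lines the median was -0.23, about that of the 86 sites kept in both elsewhere, at -0.24. The direction also depends on the measure: with the summit height in place of the fold change, which is not scaled for depth, the median over the histone sites was 0.22, higher in U2OS. A general difference in NPAT strength at the histone sites was therefore not established by these counts. The counts at sites 1, 7, 15, 19 and 31 to 33 differed many times over, and were higher in U2OS at sites 1 and 19.

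**Figure D3:**
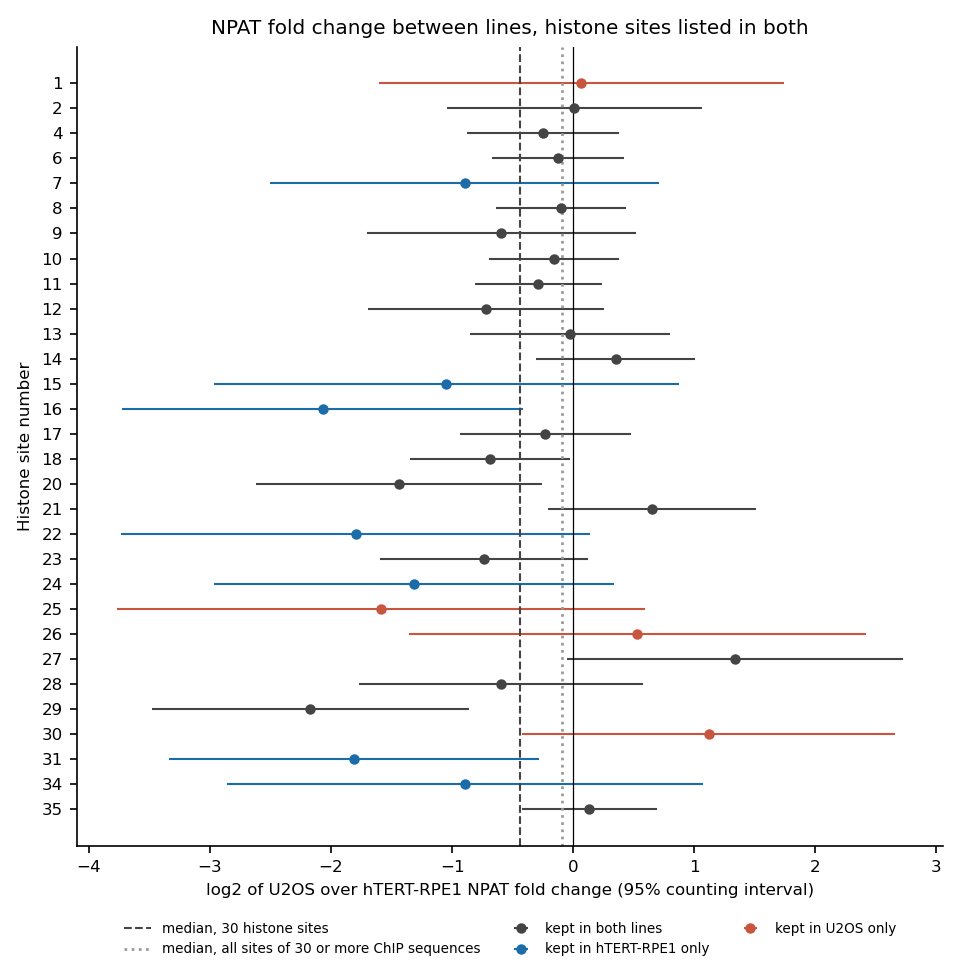
The log2 of the NPAT fold change in U2OS over that in hTERT-RPE1, with its 95% counting interval, at the 30 histone sites listed in both lines, colored by the line that kept the site. The dashed line marks the median of these sites (-0.44). The dotted line marks that of the 2522 sites listed in both lines with at least 30 ChIP sequences in either line (-0.09). Most intervals cross 0.

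The order of the sites was more alike between the lines by count than by fold change. Over the 19 histone sites kept in both, Spearman's rho between the lines was 0.81 for the summed ChIP sequences, 0.72 for summit heights and 0.31 for fold changes, as a description without a test, since the points share their 2 libraries and differ in length. The summed count was higher in U2OS at 14 of the 19 sites and higher in hTERT-RPE1 at 5, with a median ratio of 1.20 (0.367 to 3.13). Summits lay a median of 64 bp apart (6 to 1403 bp), within 200 bp at 14 of 19. Those of sites 2, 11 and 35 were 1173, 1403 and 1101 bp apart. Elsewhere the summits of the 86 shared sites were a median of 10 bp apart (0 to 175 bp).

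The shape of the regions differed between the histone loci and the rest. Histone regions were long, with a median of 1744 bp in hTERT-RPE1 and 1530 bp in U2OS, and the summit held a median of 31.7% and 42.3% of the region's ChIP sequences. Among regions with at least 100 ChIP sequences, the 21 histone regions in hTERT-RPE1 had a median length of 2438 bp and a summit share of 25.5% (14.3 to 50.7%). The 23 regions elsewhere had 519 bp and 91.7% (55.3 to 100%), with no overlap between the shares. In U2OS the 20 histone regions had 2273 bp and 30.9% (19.7 to 52.4%), and the 26 elsewhere 658.5 bp and 82.3% (24.8 to 99.5%), where the ranges overlapped. A share near 100% means that almost all reads of the region covered the same base, and a longer region has a lower share at the same count per base.

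**Figure D4:**
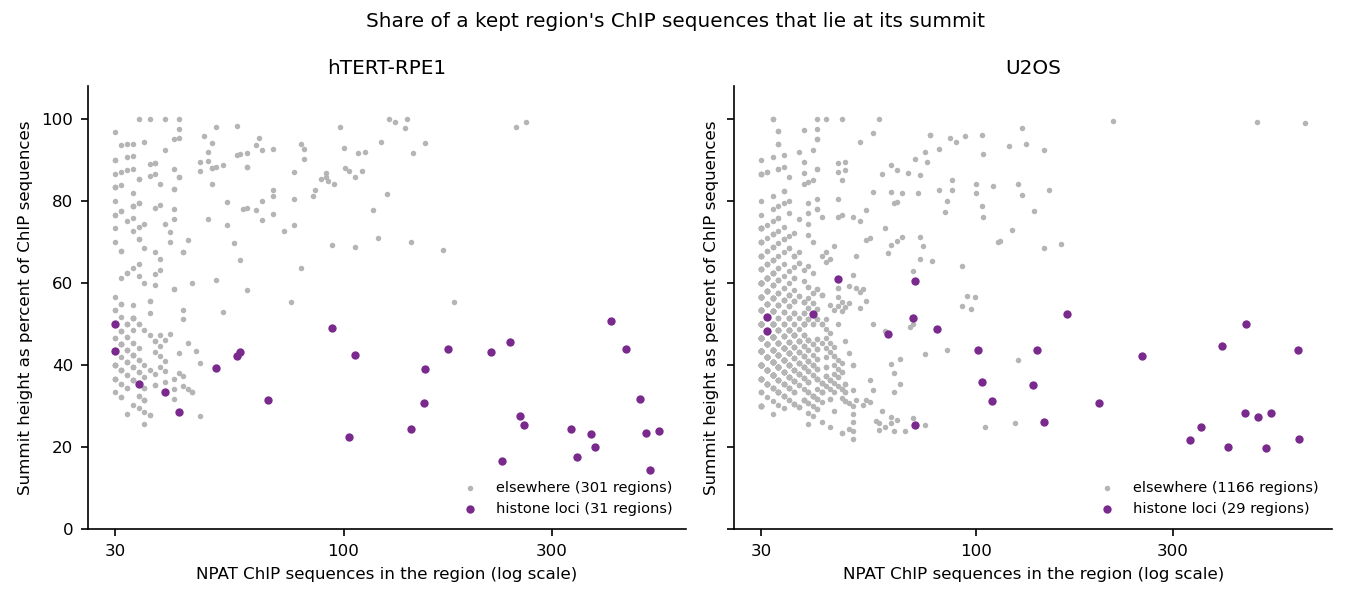
Summit height as a percent of the region's ChIP sequences, against the number of ChIP sequences (log scale), for each kept NPAT region in hTERT-RPE1 (left) and U2OS (right). Histone regions extend to the right at shares below 61%, and the regions elsewhere with more than 100 ChIP sequences lie mostly above 60%.

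Sites elsewhere that were kept in both lines with the highest fold changes were narrow stacks of reads. The one with the highest lower fold change, at 44962288 to 44962680 on chromosome 16, had 42 ChIP and 0 IgG sequences in hTERT-RPE1 and 43 and 1 in U2OS, with all reads at the summit. The site at 58577950 to 58578337 on chromosome X had 127 against 8 (13.2-fold) and 215 against 2 (58.7-fold), and its summit was 127 and 214 reads high. The site at 51428531 to 51428921 on chromosome 11 had 261 against 37 and 480 against 47, with summits of 259 and 476. Of the 10 sites so ranked, 8 had a CASP8AP2 region in both lines, with fold changes from 5.34 to 65.9, and HINFP at these 8 was between 0.81-fold and 1.44-fold.

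In the HINFP regions that overlapped these 8 sites, the goat IgG control held from 29 to 1894 sequences. In the NPAT regions the rabbit IgG control held 0 to 8 at 7 of the sites, and 37 and 47 on chromosome 11. The regions of the 2 factors differ in length, and these counts are not scaled for it. On chromosome X the goat control held 401 and 566 sequences. At 32424426 to 32424971 on chromosome 19 NPAT had 98 against 6 and 146 against 3. The goat control held 1516 and 1475 in the overlapping HINFP regions. Those regions were far longer than the NPAT site, and their summits lay outside it. The other 6 of the 10 sites lay at 39122163 to 39122564 on chromosome 10, 61268261 to 61268647 on chromosome 7, 91211550 to 91211949 and 91654068 to 91654453 on chromosome 2, 32429270 to 32429980 on chromosome 19 and 22650765 to 22651247 on chromosome 1. Their lower fold change ran from 5.89 to 13.5. The chromosome 1 site had 10 goat IgG sequences in hTERT-RPE1 and no HINFP region in U2OS, and the site at 91211550 had no HINFP region in either line. The part of the goat IgG counts in these stacks was not tested.

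Sites kept in 1 line elsewhere were mostly near the minimum count, with a median of 34 ChIP sequences in hTERT-RPE1 and 33 in U2OS. Of the 215 kept in hTERT-RPE1 alone, 122 (56.7%) had a listed region in U2OS, which passed the ratio with fewer than 30 ChIP sequences at 36. Of the 1080 kept in U2OS alone, 351 (32.5%) had a listed region in hTERT-RPE1, and 95 passed the ratio with too few sequences. The sites of hTERT-RPE1 alone with the most ChIP sequences were at 46992719 to 46993199 on chromosome 3 (122 against 22, and 45 against 19 in U2OS) and at 98033 to 98590 on chromosome 18 (110 against 19, and 69 against 23). The next were at 124703540 to 124704313 on chromosome 10 (94 against 21, and 51 against 17), at 10932205 to 10932646 on chromosome 19 (69 against 11, and 22 against 4) and at 157755505 to 157756100 on chromosome 3 (69 against 8, and 27 against 4). At all 5 sites the U2OS list held a region with fewer ChIP sequences. Those of U2OS alone were at 41704902 to 41705416 on chromosome 10 (132 against 34, and 27 against 6 in hTERT-RPE1) and at 34870845 to 34871387 on chromosome 17 (129 against 30, and 123 against 41). The last pair shows 2 near-equal counts on either side of the ratio of 3.

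Some U2OS sites elsewhere had the broad shape of the histone sites. At 22440161 to 22441195 on chromosome 17 NPAT had 126 against 21 in U2OS over 1035 bp, at 94976456 to 94978052 on chromosome 2 it had 124 against 30 over 1597 bp, and no NPAT region was listed at either in hTERT-RPE1. At 25841069 to 25842861 on chromosome 22 it had 105 against 32 over 1793 bp, and 15 against 3 in hTERT-RPE1. CASP8AP2 was 3.36-fold, 3.24-fold and 2.78-fold at these 3 in U2OS. The strongest NPAT site on chromosome 12, at 14814940 to 14815904, was kept in both lines, with 43 against 4 (8.17-fold) and 161 against 33 (3.88-fold). HINFP there was 1.79-fold in hTERT-RPE1 and 6.34-fold in U2OS, while CASP8AP2 was 1.97-fold and 1.17-fold.

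At a ratio of at least 3, CASP8AP2 was found at more of the histone NPAT sites than HINFP or E2F1 in each line. At a ratio of at least 5 this order did not hold in hTERT-RPE1, where the shares were 10.7% for CASP8AP2, 17.9% for HINFP and 17.9% for E2F1. Each site was scored by the factor's region with the most ChIP sequences. Of the 28 histone sites kept in hTERT-RPE1, 15 had a CASP8AP2 ratio of at least 3 by this score (53.6%, 35.8 to 70.5%). The share was 6.5% of all NPAT regions with at least 30 ChIP sequences. In U2OS it was 22 of 26 (84.6%, 66.5 to 93.9%), against 4.88%. Elsewhere the shares were 14.6% (11.1 to 19.1%) and 14.8% (12.8 to 16.9%). The intervals of the 2 lines overlap in the histone loci, and whether the shares differ between the lines was not tested. As the median over the listed regions, the CASP8AP2 fold change at the histone sites was 2.91 in hTERT-RPE1 and 4.15 in U2OS. NPAT and CASP8AP2 share the IgG counts of a line, so a low IgG count raises both.

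HINFP, with its own goat IgG, had a ratio of at least 3 at 7 of 28 histone sites in hTERT-RPE1 (25%, 12.7 to 43.4%; 3.92% of all NPAT regions with at least 30 ChIP sequences) and at 8 of 26 in U2OS (30.8%, 16.5 to 49.99%; 2.19%). Elsewhere it was 3.32% (1.81 to 6.01%) and 1.20% (0.717 to 2.01%), close to or below those backgrounds. Sites 4, 9, 10, 12, 14 and 17 had such a HINFP region in both lines. Site 11 had one in hTERT-RPE1 and site 19 in U2OS. Site 26 had one in both lines and is counted for U2OS alone, where it was kept for NPAT. The highest HINFP fold change at a histone site in hTERT-RPE1 was 23.5 at site 10, from 93 against 3, where U2OS had 73 against 10 (7.84-fold). In U2OS it was 15.1 at site 4, from 64 against 4, where hTERT-RPE1 had 50 against 8 (5.66-fold).

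At a ratio of at least 3, the E2F1 intervals of histone sites and of sites elsewhere overlapped in each line, unlike those of CASP8AP2 and HINFP. This contrast depended on the limit. At a ratio of at least 5 in hTERT-RPE1 the E2F1 share was 17.9% in the histone loci and 5.98% elsewhere. For CASP8AP2 it was 10.7% and 5.32%, all without intervals. The E2F1 ratio was at least 3 at 7 of 28 histone sites in hTERT-RPE1 (25%, 12.7 to 43.4%) and at 66 of 301 sites elsewhere (21.9%, 17.6 to 26.9%), against 10.8% of all NPAT regions with at least 30 ChIP sequences. In U2OS it was 4 of 26 (15.4%, 6.15 to 33.5%) and 119 of 1166 (10.2%, 8.60 to 12.1%), against 4.04%. E2F1 and NPAT share the IgG counts of a line, so a low IgG count raises both ratios. The regions behind the 10.8% and 4.04% did not have to pass the NPAT ratio. Site 18 was enriched in both lines, 5.92-fold from 118 against 18 and 6.66-fold from 68 against 10, and site 2 was 9.34-fold in hTERT-RPE1 and 2.98-fold in U2OS. Site 31 was scored in hTERT-RPE1 by its E2F1 region with the most ChIP sequences, so that another, with 27 against 2 (8.82-fold), was not counted.

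**Figure D5:**
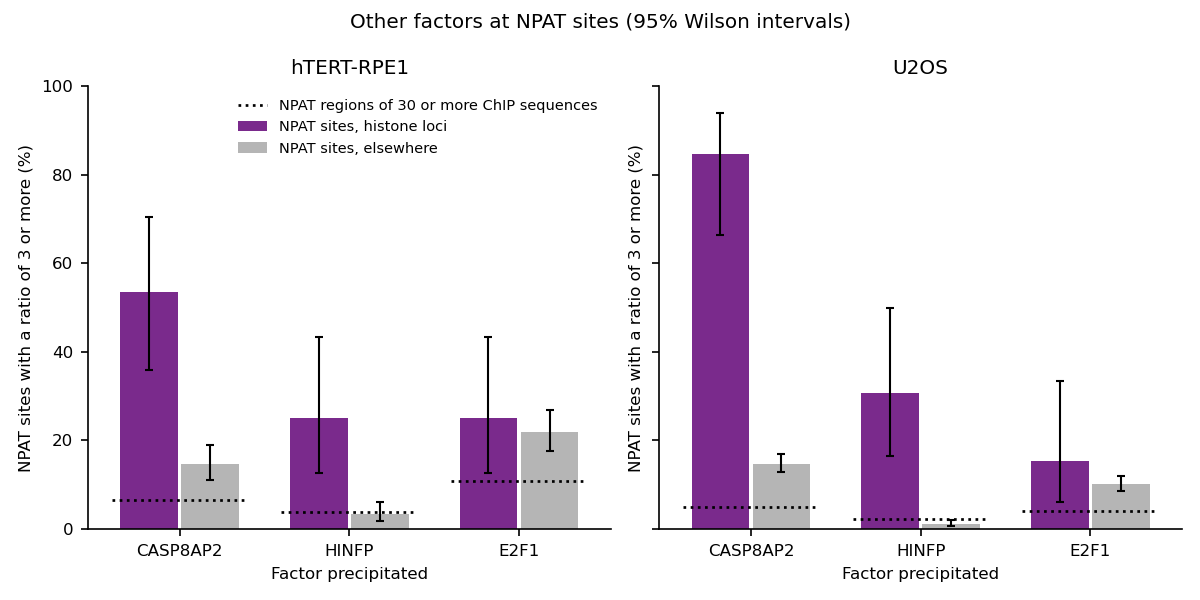
Share of the NPAT sites kept in a line at which CASP8AP2, HINFP or E2F1 had a ratio of at least 3, in percent with 95% Wilson intervals, for histone sites (28 in hTERT-RPE1, 26 in U2OS) and sites elsewhere (301 and 1166). Dotted lines give the share over all NPAT regions with at least 30 ChIP sequences. CASP8AP2 stands at 53.6% and 84.6% in the histone loci against 14.6% and 14.8% elsewhere, while the E2F1 intervals overlap.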

How the data were processed

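Per the labels and the study's methods, the reads were mapped to NCBI36 (hg18) and compared with an IgG library of the same line. The aligner, the peak caller and the treatment of duplicate and multiply mapped reads are not given in the sources used here. Each deposited list gives whole-number counts of ChIP and IgG sequences per region, not normalized. The signal the authors deposited as summit height is the number of reads at the summit. The fold change they deposited is a ratio of the counts plus 1 times 1 constant per library, and the deposited p-value is not adjusted for multiple regions. Column totals are not library depths, which are unknown. There were 0 columns of unknown samples.

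Regions with at least 30 ChIP sequences and a count ratio of at least 3 (1 added to each count) were kept, joined by overlap of at least 1 bp, and compared between the lines. The strongest listed region at a site gave its value in each line and for each factor. The limits, the windows and the gene lists were chosen with earlier results of these data known. Sites described in full were the 10 histone sites with the highest lower fold change, all histone sites kept in 1 line, the 5 with the largest log2 ratio each way, the 10 shared sites elsewhere with the highest lower fold change, the 5 largest sites of each line alone and the strongest chromosome 12 site. The planned gene lists were not used, because no NCBI36 annotation was used here. The code was tested on simulated lists. The tools were pandas 2.3.3 and numpy 2.4.6 with scipy 1.17.1 under Python 3.11.15, and figures were drawn in matplotlib 3.10.9.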

Additional observations from a re-analysis of the deposited data

How the results depend on the processing

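No paired analysis was possible because each factor had 1 library per line. Of 100 values recomputed under the alternatives, 54 stayed within 1.5 times the count or inside the interval given in the report, 45 moved outside it and 1 changed sign. The number of histone sites stayed between 29 and 50 under all 6 other limits. The number of sites in all (1416) and elsewhere (1381) became 12655 and 12605 with at least 20 ChIP sequences, 172 and 143 with at least 50, 3506 and 3466 at a ratio of 2, 349 and 319 at a ratio of 5, and 808 and 773 with a deposited fold change of at least 3. The share of regions elsewhere kept in both lines, 28.6% in hTERT-RPE1 and 7.38% in U2OS cells, was 4.34% and 1.61% with at least 20 ChIP sequences, 67.1% and 41.2% with at least 50, and 9.14% and 14.0% under the limits of the study's methods as read here (p below 1e-05, fold change over 2). The methods print the p limit as above 1e-05, and it was read as below. In U2OS cells the share elsewhere was 4.92% at a ratio of 2, 13.6% at a ratio of 5 and 11.8% at a deposited fold change of 3. The histone shares moved only with summits within 200 bp, to 48.4% and 51.7%. The median log2 ratio at histone sites turned from -0.44 to 0.22 with summit heights, and that at other sites moved from 0.23 to 0.41 with summit heights and to 0.41 with the unscaled ratio. The cause was not tested.

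For the other factors, the CASP8AP2 share at histone sites was 75.0% at a ratio of 2 and 10.7% at a ratio of 5 in hTERT-RPE1 cells, and 38.5% at a ratio of 5 in U2OS cells. At other sites it was 27.9%, 5.32% and, with at least 30 ChIP sequences of the factor, 8.97% in hTERT-RPE1 cells, and 32.3%, 3.60% and 3.60% in U2OS cells. HINFP at other sites was 0% with at least 30 ChIP sequences in hTERT-RPE1 cells (0 of 301 sites, up to 1.26%), and 3.002%, 0.429% and 0.257% in U2OS cells. E2F1 at histone sites was 46.4% at a ratio of 2 in hTERT-RPE1 cells, and 34.6% at 2 and 3.85% at 5 in U2OS cells. At other sites it was 37.9%, 5.98% and 11.0% in hTERT-RPE1 cells, and 21.2%, 2.32% and 3.26% in U2OS cells. The share of CASP8AP2, of HINFP and of E2F1 was higher in the histone loci than elsewhere under each of these settings in both lines. The gap was small for CASP8AP2 at a ratio of 5 in hTERT-RPE1 cells, 10.7% against 5.32%, without an interval. It was also small for E2F1 at a ratio of 5 in U2OS cells, 3.85% against 2.32%, without an interval. At a ratio of 3 the E2F1 intervals overlapped in both lines. Histone regions were longer than the others, and the part of length in these shares was not tested. The total reads per library are not known, so that counts of the lines are compared without scaling and that a region is not listed does not show that NPAT was absent.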

Other observations

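Kept NPAT regions outside the histone loci were spread unevenly over the chromosomes, with different shares in the 2 lines. In hTERT-RPE1 cells chromosome 10 held 50 of them, 16.6% against 8.93% of all listed regions, and chromosome 19 held 27, 8.97% against 1.88%. In U2OS cells chromosome 10 held 6.17% against 5.52%, and chromosome 19 held 2.92% against 1.57%. In U2OS cells chromosome 8 held the most, 128 regions or 11.0% against 7.74% of listed regions, where hTERT-RPE1 cells had 3.32% against 4.85%. Chromosome 22 held 5.32% against 2.63% in U2OS cells and 1.99% against 1.47% in hTERT-RPE1 cells, and chromosome 20 held 6.35% against 3.89% and 1.99% against 2.44%. These chromosomes were chosen after their values were seen, and the difference between the lines was not tested. The median IgG count of a listed region was 6 on chromosome 10 in hTERT-RPE1 cells, where it was 4 on chromosome 19, and 7, 6 and 6 on chromosomes 22, 20 and 8 in U2OS cells. The part of the control level in these shares was not tested.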
